A study of Mus musculus with 24 samples.

Results

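The collagen genes of the mouse oesophagus are described here across 8 groups of mice. They were taken as the probes of the array, control spots aside, whose gene name in the scanner files was Col followed by a chain number, and Col17a1 was left out. The rule found 83 probes of 41 genes, out of 41174 probes of 28102 genes in all, and 37 of the 41 genes were bright enough to be tested, out of 20554 tested genes. The names were read from both probe annotations in the files, since 4 of the probes carried a collagen name only in the older one.

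The 8 groups were Nrf2-null (Nrf2-/-) and wild-type mice with mixed reflux, with duodenal reflux, with gastric reflux or without reflux, and each group held 3 arrays. All mice were labelled as males of the C57BL/6J strain, 12 weeks old, and reflux had lasted for 4 weeks. The study set the Nrf2-null against the wild type in each of the 4 conditions. Nrf2, encoded by Nfe2l2, activates genes for antioxidant defence and the removal of toxic compounds. How reflux was produced and what part of Nfe2l2 is missing in the null allele are not given in the sources used here. The tissue is labelled both as oesophageal epithelium and, for 7 of the groups, as whole oesophagus, and for the Nrf2-null mixed group as oesophageal epithelium in every field. On each array the RNA of the oesophagus carried the dye Cy5, and a reference RNA pooled from 11 mouse cell lines carried Cy3. A value below is the log2 ratio of oesophagus to reference for a gene, so it can be compared between samples but not between genes. A difference is the mean of one group minus that of another on that scale, ± the standard error of the fit, and a gene is called where its adjusted p lies under 0.05 over all genes tested.

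Collagens are trimers of chains wound into a triple helix, made mainly by fibroblasts and other mesenchymal cells. Fibrillar collagens (types I, II, III, V, XI, XXIV and XXVII) form the fibres that carry tension, and FACIT collagens sit on the surface of those fibres. Type IV collagen forms the net of every basement membrane, type VII anchors the squamous epithelium to the connective tissue under it, and types XV and XVIII lie in the basement membrane zone. Type VI forms beaded filaments, types VIII and X form hexagonal nets, and types XIII, XXIII and XXV are transmembrane proteins. The wall of the mouse oesophagus holds a squamous epithelium, connective tissue, vessels and striated and smooth muscle, so a bulk sample mixes all their RNA, and fewer cells of a type cannot be told apart from less RNA per cell.

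Several arrays stood apart before any collagen was compared. Nfe2l2 itself had log2 ratios of -3.81 to -2.83 in the Nrf2-null, against 1.45 to 2.18 in the wild type, where 2 arrays did not measure it. Nrf2-null gastric replicate 2 went against its label as a male, with Xist at -1.78, against -7.20 to -4.67 on the other arrays, and Ddx3y at -4.20. Nrf2-null gastric replicate 1 and Nrf2-null duodenal replicate 2 were dim in Cy5 (90th percentile of intensity 2194 and 2404 units, against 5548 to 11980 on the other arrays read with the same software version). The 3 Nrf2-null mixed arrays correlated at 0.996 to 0.997, against 0.754 to 0.991 for 21 pairs within the other groups. They were therefore averaged and counted as 1 sample, so that group enters with n = 1 and each test of it borrows the spread of the other groups. Wild type without reflux replicates 1 and 2 were on a slide, a scan day and a software version of their own, with 90th percentiles of 3283 and 2234 units, and 6 bright collagens (Col1a2, Col3a1, Col6a3, Col7a1, Col8a1 and Col16a1) were flagged as outliers there, which leaves 1 array of that group for them. The labels call the arrays biological replicates, and nothing says whether each was 1 animal.

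Collagen RNA was detected for nearly the whole family. Of the 41 genes, 29 stood well above the Cy5 background on every array, 9 on some and 3 on none. The fibrillar class had 8 of 11 genes above background on all arrays, the basement membrane zone 7 of 9, the beaded filaments 4 of 5, the FACITs 6 of 9 and the transmembrane class 3 of 3. Of the hexagonal nets, Col8a1 was above background on 24 arrays and Col8a2 on 23, while Col10a1, a product of hypertrophic cartilage, was not above background on any. Col4a3 and Col28a1 were not above background on any array either, and Col6a6 was on 2. These 4 genes were not tested. The tested genes seen on the fewest arrays were Col9a1, above background on 4 arrays, Col9a3 on 11, and Col19a1 and Col24a1 on 13 each. Relative to the reference RNA the oesophagus was rich in Col7a1, Col9a2, Col13a1, Col14a1, Col15a1 and Col23a1, which had a positive log2 ratio on every array that measured them. It was poor in Col1a1, Col1a2, Col4a5, Col5a1, Col5a2, Col6a1, Col9a3, Col11a1 and Col16a1, which were negative on every array that measured them.

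Duodenal reflux gave the most collagen calls. In the Nrf2-null it called 7 of 37, close to the 19.8% of all genes called there. In the wild type it called 7 of 37, where 10.3% of all genes were called. The calls lay in the basement membrane zone, the hexagonal nets and the transmembrane class. Outside these were 1 FACIT in the wild type and 1 beaded filament chain in the Nrf2-null. Of the 11 fibrillar genes Col5a1 was called, in 1 of the 10 comparisons between groups, and the other 10 in none. Over the 37 genes the median difference ran from -0.07 to 0.40 in those comparisons, beside -0.03 to 0.11 over all genes tested.

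**Figure D1:**
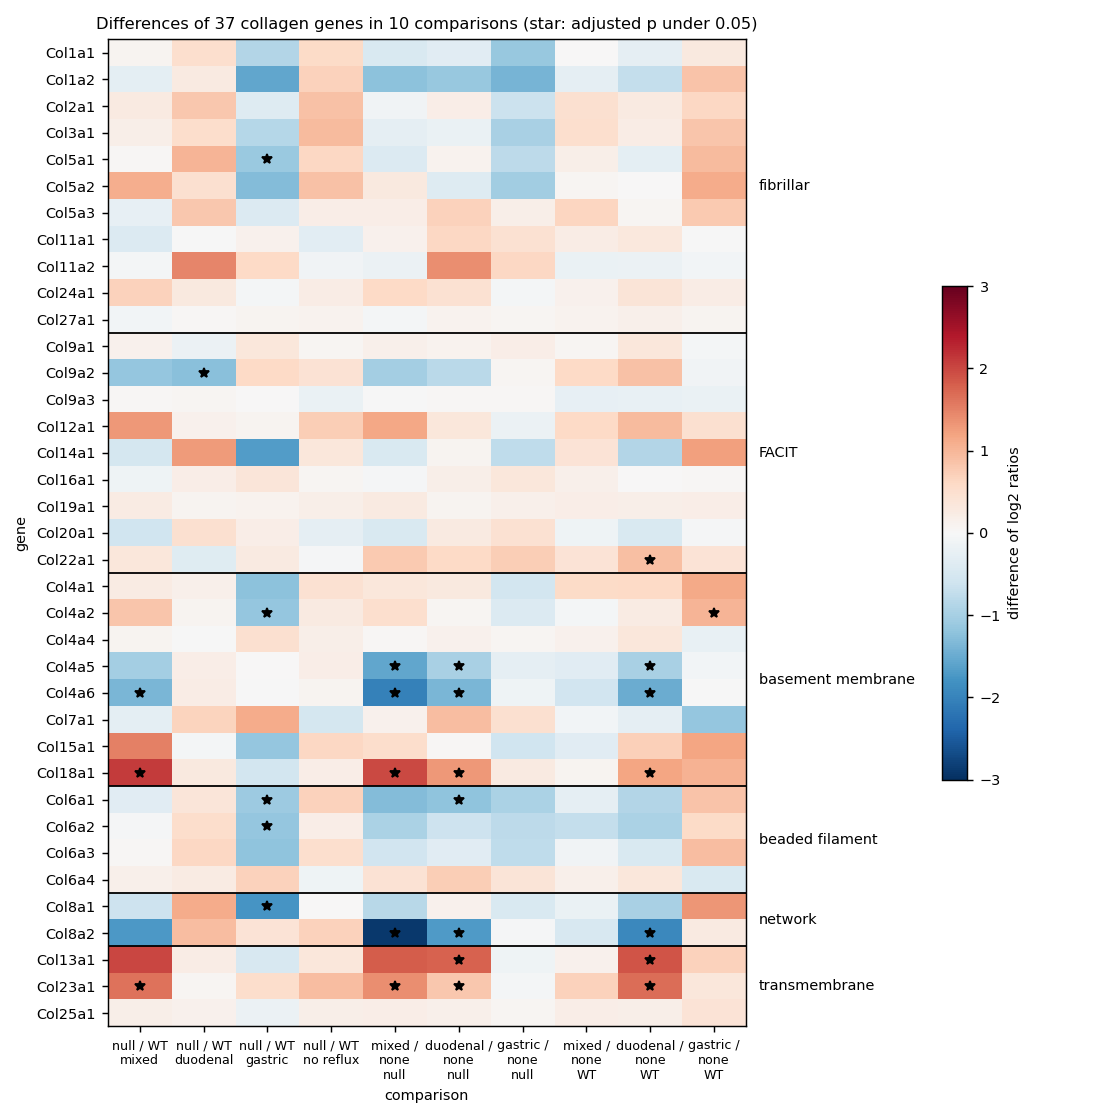
Differences of log2 ratios for the 37 collagen genes tested (rows, by class) in 10 comparisons (columns), with a star where the adjusted p is under 0.05. Stars gather in Col4a5, Col4a6, Col8a2, Col18a1, Col13a1 and Col23a1 for duodenal and Nrf2-null mixed reflux, and in Col4a2, Col5a1, Col6a1, Col6a2 and Col8a1 for Nrf2-null against wild type under gastric reflux.

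Under duodenal reflux 6 collagens changed in both genotypes and in the same direction. Col13a1 and Col23a1, both transmembrane collagens, and Col18a1, the precursor of endostatin, rose. Col4a5 and Col4a6, the chains of a type IV net found in selected basement membranes such as that of smooth muscle, and Col8a2, a short-chain collagen of hexagonal nets, fell. The Nrf2-null called 7 of 37 collagens (3 higher, 4 lower), where 19.8% of all genes tested were called, and the wild type also 7 (4 higher, 3 lower), where 10.3% were. The 6 shared genes are 85.7% of either list. Over all genes the 2 lists shared 1140 genes, 28.0% of the Nrf2-null calls and 53.7% of the wild-type calls, and 1126 of them had the same sign. No sample is shared between the 2 comparisons.

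**Figure D2:**
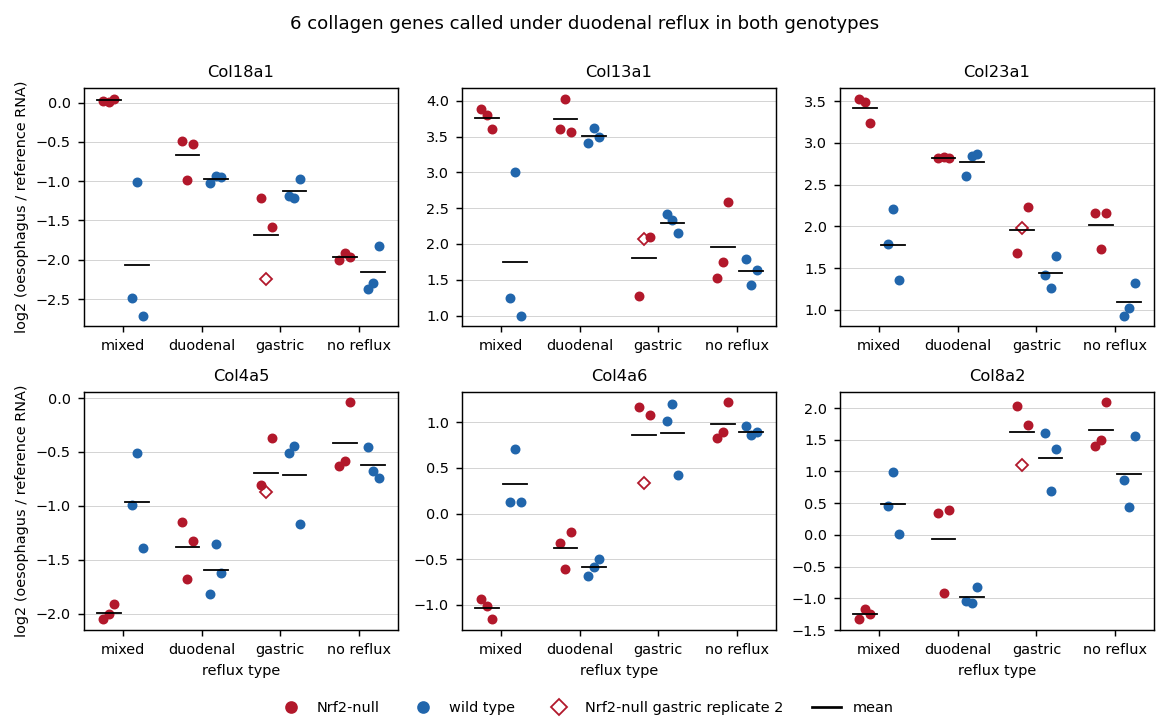
Log2 ratio of oesophagus to reference RNA on each array (points) and group means (bars) for the 6 genes, by reflux type and genotype; the open diamond is Nrf2-null gastric replicate 2. Under duodenal reflux the points of both genotypes lie above those without reflux for Col18a1, Col13a1 and Col23a1 and below them for Col4a5, Col4a6 and Col8a2, and the Nrf2-null mixed arrays lie on the same side.

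Col13a1 had log2 ratios of 3.61, 4.03 and 3.57 in Nrf2-null duodenal reflux, against 1.53, 1.75 and 2.59 in Nrf2-null without reflux. In the wild type it had 3.41, 3.62 and 3.50 under duodenal reflux, against 1.79, 1.43 and 1.63 without reflux. The groups did not overlap in either genotype, and the rise was 1.78 ± 0.39 in the Nrf2-null (3.44-fold, adjusted p = 0.00466) and 1.89 ± 0.39 in the wild type (3.71-fold, adjusted p = 0.00566; both by limma's moderated test). Col23a1 had 2.82, 2.83 and 2.82 in Nrf2-null duodenal reflux, against 2.16, 1.73 and 2.16 in Nrf2-null without reflux. In wild-type duodenal reflux it had 2.60, 2.84 and 2.87, against 0.93, 1.02 and 1.32 without reflux. Its level under duodenal reflux was thus nearly the same in the genotypes, while the levels without reflux did not overlap between them. The rise was 0.81 ± 0.20 in the Nrf2-null (1.75-fold, adjusted p = 0.00975) and 1.68 ± 0.20 in the wild type (3.21-fold, adjusted p = 0.000107). The rise in the Nrf2-null minus that in the wild type was -0.87 ± 0.28, which did not pass by itself (adjusted p = 0.203).

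Col18a1 had -0.49, -0.98 and -0.53 in Nrf2-null duodenal reflux, against -2.00, -1.91 and -1.97 in Nrf2-null without reflux. In wild-type duodenal reflux it had -1.02, -0.94 and -0.95, against -2.37, -2.29 and -1.82 without reflux. No array without reflux reached the duodenal arrays, and the rise was 1.29 ± 0.33 (2.45-fold, adjusted p = 0.0120) in the Nrf2-null and 1.19 ± 0.33 (2.28-fold, adjusted p = 0.0306) in the wild type. A second probe of Col18a1 rose by 0.78 and 0.65 and one of Col23a1 by 1.13 and 1.13 in the Nrf2-null and the wild type. The second probe of Col13a1 was above background on 3 arrays only.

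Col4a6 had -0.32, -0.61 and -0.20 in Nrf2-null duodenal reflux, against 0.83, 0.90 and 1.22 in Nrf2-null without reflux. In wild-type duodenal reflux it had -0.68, -0.59 and -0.50, against 0.96, 0.86 and 0.89 without reflux. All 6 duodenal arrays lay below 0 and all 6 arrays without reflux above it, a difference of -1.36 ± 0.23 in the Nrf2-null (adjusted p = 0.000764) and -1.50 ± 0.23 in the wild type (adjusted p = 0.000666). The probes of Col4a6 disagreed, however. The 3 probes lie within the gene on chromosome X (mm9, minus strand), at 137599990 to 137600049 for the brightest, used above, at 137600816 to 137600875 and at 137601433 to 137601491. The second fell by 1.08 in the Nrf2-null and by 0.69 in the wild type, and the third, above background on all 24 arrays, had differences of 0.34 and 0.29. Col4a6 is therefore described by its brightest probe, with 1 of 3 probes going the other way.

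Col4a5 had -1.15, -1.68 and -1.32 in Nrf2-null duodenal reflux, against -0.63, -0.58 and -0.04 in Nrf2-null without reflux. In wild-type duodenal reflux it had -1.82, -1.35 and -1.62, against -0.45, -0.68 and -0.74 without reflux. Again the groups did not overlap, and the difference was -0.97 ± 0.25 in both genotypes (adjusted p = 0.0118 in the Nrf2-null, 0.0191 in the wild type). Col8a2 had 0.34, -0.92 and 0.40 in Nrf2-null duodenal reflux, against 1.40, 1.49 and 2.09 in Nrf2-null without reflux. In wild-type duodenal reflux it had -1.04, -1.08 and -0.82, against 0.87, 0.44 and 1.56 without reflux. This was the deepest fall among collagens in either genotype, with a difference of -1.71 ± 0.38 (adjusted p = 0.00481) in the Nrf2-null and -1.94 ± 0.38 (adjusted p = 0.00378) in the wild type. Both genes have 1 probe each, so these falls have no second probe behind them.

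**Figure D3:**
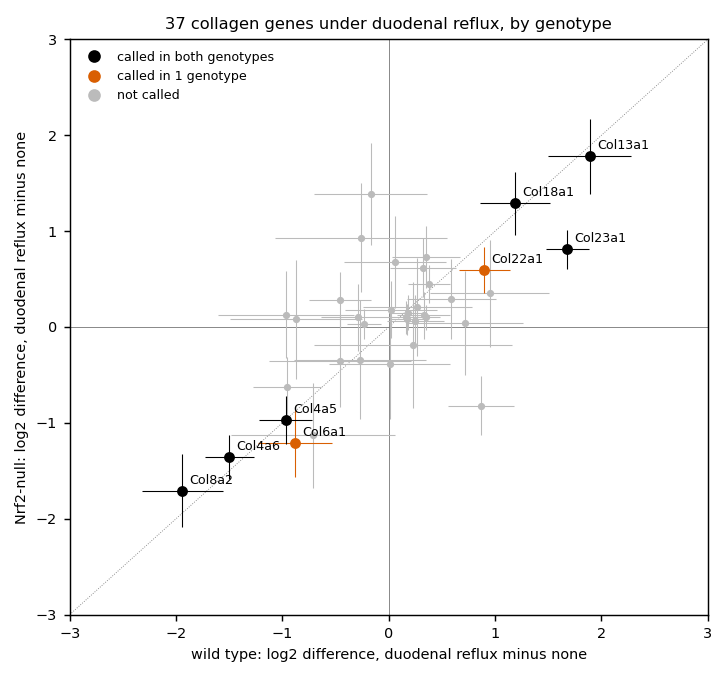
Difference of log2 ratio between duodenal reflux and no reflux for the 37 collagen genes, in the Nrf2-null (vertical) and the wild type (horizontal), with standard errors as bars. The 6 genes called in both genotypes lie near the diagonal except Col23a1, which has 0.81 in the Nrf2-null and 1.68 in the wild type.

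The 2 other calls were in 1 genotype each. Col6a1, a chain of the type VI beaded filaments, fell by 1.21 ± 0.35 in Nrf2-null duodenal reflux (adjusted p = 0.0238, and 0.0755 without the 2 dim arrays) and had -0.88 ± 0.35 in the wild type (adjusted p = 0.127). Col22a1, a FACIT of tissue junctions such as that of muscle and tendon, rose by 0.90 ± 0.24 in wild-type duodenal reflux (adjusted p = 0.0228) and had 0.59 ± 0.24 in the Nrf2-null (adjusted p = 0.0899). Its other probe had 0.38 and 0.25 in the Nrf2-null and the wild type. Among the fibrillar collagens none was called in either genotype: Col1a1 had -0.34 in the Nrf2-null and -0.27 in the wild type, and Col3a1 -0.19 and 0.23.

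Scan day goes along with these groups in part in the Nrf2-null and fully in the wild type. All 6 duodenal arrays were scanned on day 3, 1 of the 3 Nrf2-null arrays without reflux was, and none of the wild-type arrays without reflux was. Nrf2-null without reflux was the only group scanned on both day 2 and day 3. With scan day as a block, the wild-type differences therefore rest on its 1 array of day 3. With scan day as a block, 2 of the 7 Nrf2-null calls held, Col4a6 (-1.59, adjusted p = 0.0220) and Col8a2 (-2.14, adjusted p = 0.0360), and none of the wild-type calls (adjusted p of 0.300 to 1). The wild-type differences were then -3.18 for Col8a2, -1.84 for Col4a6, -1.41 for Col4a5, 1.23 for Col23a1, 0.93 for Col13a1, 0.87 for Col18a1 and 0.76 for Col22a1, so that Col8a2 was larger and Col13a1 smaller by over 1.5 times. Within day 3, 3 Nrf2-null duodenal arrays against 1 without reflux, the 7 differences were -2.14 to 1.31 with adjusted p of 0.0600 to 0.442, and Col4a6 had -1.59. Without the 2 arrays of the first slide, which leaves 1 wild-type array without reflux, 3 wild-type calls held (Col23a1, Col4a6 and Col8a2, with adjusted p of 0.0200 to 0.0377). The other 4 had 1.88 for Col13a1, 1.20 for Col22a1, 0.85 for Col18a1 and -0.85 for Col4a5, with adjusted p of 0.0862 to 0.441. Leaving out single arrays ended calls too. In the Nrf2-null, Col23a1 lost its call without replicate 2 of no reflux (0.66), Col4a5 without replicate 3 of no reflux (-0.78) or duodenal replicate 2 (-0.82), and Col6a1 without any array of no reflux or duodenal replicate 2 (-1.27 to -1.03). In the wild type, Col18a1 lost it without replicate 1 or 2 of no reflux or any duodenal array (1.08 to 1.21), Col4a5 without replicate 1 of no reflux or duodenal replicate 1 or 3 (-0.96 to -0.86), and Col22a1 without replicate 3 of no reflux or duodenal replicate 2 or 3 (0.75 to 0.92). Col13a1, Col4a6 and Col8a2 kept their call in both genotypes whichever array was left out. Median centring in place of loess called 4 collagens in the Nrf2-null, 0 higher and 4 lower, against 3 higher and 4 lower by loess. In the wild type it called 4 higher and 1 lower, and the software's ratio 3 higher and 5 lower, against 4 higher and 3 lower. Median centring moved the median of all genes by -0.25 in the Nrf2-null comparison and by 0.04 in the wild-type one. Counts under other settings, here and below, stand without the share of all genes called there.

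The stretch before the start of each of the 6 genes is shown because the genes were called under duodenal reflux in both genotypes. A further reason is that Col4a5 and Col4a6 stand head to head on chromosome X, with their starts 1343 bases apart. The 250 bases before the start are from RefSeq (GRCm38.p6), written 5′ to 3′ on the gene's strand. Capitals mark matches on either strand to 5 motifs, the CCAAT box, the GC box (GGGCGG), the TATA box (TATAAA), the AP-1 site (TGANTCA) and TGACNNNGC (the core of the antioxidant response element, which Nrf2 binds). Motif matches could overlap, and overlapping ones run together as 1 block of capitals.
Col4a5, chrX:141475169-141475418, plus strand: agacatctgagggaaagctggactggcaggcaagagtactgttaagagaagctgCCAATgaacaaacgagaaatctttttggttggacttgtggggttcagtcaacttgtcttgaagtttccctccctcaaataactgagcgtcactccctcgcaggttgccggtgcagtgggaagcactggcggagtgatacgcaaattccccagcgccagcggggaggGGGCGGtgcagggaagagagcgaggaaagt
Col4a6, chrX:141474077-141474326, minus strand: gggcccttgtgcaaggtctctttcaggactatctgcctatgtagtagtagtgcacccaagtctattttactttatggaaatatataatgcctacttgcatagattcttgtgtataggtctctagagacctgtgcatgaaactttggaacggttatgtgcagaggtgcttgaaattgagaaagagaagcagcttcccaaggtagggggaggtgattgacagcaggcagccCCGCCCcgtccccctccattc
Col8a2, chr4:126286544-126286793, plus strand: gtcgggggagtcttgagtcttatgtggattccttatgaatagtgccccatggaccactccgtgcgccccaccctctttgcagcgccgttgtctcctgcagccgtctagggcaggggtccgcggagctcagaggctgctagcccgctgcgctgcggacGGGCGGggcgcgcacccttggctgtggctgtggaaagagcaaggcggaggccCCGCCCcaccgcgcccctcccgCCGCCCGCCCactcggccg
Col18a1, chr10:77166531-77166780, minus strand: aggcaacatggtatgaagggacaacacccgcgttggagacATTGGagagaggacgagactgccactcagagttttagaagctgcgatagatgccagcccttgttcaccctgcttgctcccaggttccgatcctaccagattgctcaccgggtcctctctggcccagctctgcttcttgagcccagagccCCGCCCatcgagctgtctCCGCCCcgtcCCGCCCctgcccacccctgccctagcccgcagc
Col13a1, chr10:61979109-61979358, minus strand: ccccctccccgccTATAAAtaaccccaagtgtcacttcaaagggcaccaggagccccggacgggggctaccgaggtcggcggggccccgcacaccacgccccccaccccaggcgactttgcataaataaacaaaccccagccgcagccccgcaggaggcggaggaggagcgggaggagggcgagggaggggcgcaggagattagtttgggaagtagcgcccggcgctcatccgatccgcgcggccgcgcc
Col23a1, chr11:51289670-51289919, plus strand: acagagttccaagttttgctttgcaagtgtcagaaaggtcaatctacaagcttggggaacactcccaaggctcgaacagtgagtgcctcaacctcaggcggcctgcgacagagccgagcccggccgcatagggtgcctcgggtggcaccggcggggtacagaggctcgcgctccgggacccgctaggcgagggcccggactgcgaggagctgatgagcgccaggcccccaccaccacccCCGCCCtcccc

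These letters share little. Col4a5, Col4a6, Col8a2, Col18a1 and Col23a1 hold the GC box, with 4 matches in Col8a2 and 3 in Col18a1, and Col13a1 holds none and is the 1 window of the 6 with TATAAA. Of the 36 promoter entries found for 33 of the 41 collagen genes, 58.3% hold a GC box, against 32.7% of all 32851 entries. CCAAT is in 33.3% of the collagen entries and 33.8% of all, and TATAAA in 11.1% and 12.4%. None of the 6 windows holds the AP-1 or the antioxidant response element letters. A second Col18a1 entry, which starts downstream, was searched too and holds no match to any of the 5 motifs. A match describes letters only.

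In the Nrf2-null, 5 of these 6 genes were called the same way under mixed reflux, with larger differences than under duodenal reflux, a comparison that was not tested. Mixed reflux called 5 of 37 collagens in the Nrf2-null (2 higher, 3 lower), where 4.76% of all genes were called. The Nrf2-null mixed group is the only one labelled as oesophageal epithelium in every field, and the part of that label in these differences was not tested. The group is also 1 sample, assumed to vary like the other groups, so these calls rest on that assumption. They were Col18a1 (1.99 ± 0.47, 3.97-fold, adjusted p = 0.0196), Col23a1 (1.40 ± 0.28, 2.64-fold, adjusted p = 0.00727), Col4a5 (-1.57 ± 0.35, adjusted p = 0.0139), Col4a6 (-2.02 ± 0.32, adjusted p = 0.00150) and Col8a2 (-2.90 ± 0.53, adjusted p = 0.00387). Col8a2 had -1.33, -1.16 and -1.24 on the 3 Nrf2-null mixed arrays, against 1.40, 1.49 and 2.09 without reflux, the widest gap of any collagen in these comparisons. Col13a1 had 1.81 ± 0.55 and missed the threshold (adjusted p = 0.0723). This comparison and the duodenal one share the Nrf2-null arrays without reflux. With scan day as a block Col4a5, Col4a6 and Col8a2 held (-1.94, -2.25 and -3.33, adjusted p of 0.0177 to 0.0374), and Col18a1 (2.00, adjusted p = 0.148) and Col23a1 (1.25, adjusted p = 0.112) did not. Without replicate 1 of no reflux, Col18a1 was not called (1.97). Within day 3, against 1 array without reflux, none of the 5 was called (adjusted p of 0.0654 to 0.348). Median centring called 0 higher and 2 lower.

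In the wild type, mixed reflux called 0 of 37 collagens by limma's moderated test, where 0.0535% of all genes were called. At an unadjusted p under 0.05 there were 3 of the 37, beside 2299 of all 20551 genes tested. The 3 wild-type mixed arrays were unlike each other. Col18a1 had -2.49, -1.01 and -2.71, and Col13a1 had 1.25, 3.00 and 1.00, so that replicate 2 stood near the duodenal level and the others near the level without reflux. The mean of the 37 collagens was -0.48, 0.22 and -0.57 on these arrays.

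Set against the wild type under mixed reflux, the Nrf2-null called 3 collagens (2 higher, 1 lower), where 3.45% of all genes were called. These groups differ in tissue label as well as genotype, since only the Nrf2-null one is labelled as epithelium in every field. Col18a1 had 0.02, 0.01 and 0.05 in the Nrf2-null, against -2.49, -1.01 and -2.71 in the wild type, a difference of 2.09 ± 0.47 (4.27-fold, adjusted p = 0.0192). Col23a1 had 3.53, 3.49 and 3.24 in the Nrf2-null, against 1.79, 2.21 and 1.36 in the wild type, 1.64 ± 0.28 higher (3.11-fold, adjusted p = 0.00353). Col4a6 had -0.94, -1.01 and -1.16 in the Nrf2-null, against 0.13, 0.71 and 0.13 in the wild type, 1.36 lower (adjusted p = 0.0278). Both groups were scanned on day 3. In a fit of all day 3 arrays, other groups included, Col23a1 kept its call (1.64), while Col18a1 (2.09) and Col4a6 (-1.36) did not. Without wild-type mixed replicate 1 or 3, Col18a1 was not called (1.88 and 1.77). Median centring called 1 higher and 0 lower. The smooth muscle markers Cnn1 and Tagln fell by 2.41 and 2.33 in the same comparison, 2 of 8 on that list, and the list's mean was 1.01 to 1.07 in the Nrf2-null, against 1.66 to 2.65 in the wild type.

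Under gastric reflux the genotypes differed in another set of collagens. With all arrays the 5 called were lower in the Nrf2-null, but without Nrf2-null gastric replicate 2, whose Xist and Ddx3y went against its label, 1 collagen was called lower and 3 higher. Shares over all genes are given here only for the fit with all arrays, loess and no block. Counts under other settings stand without such a share. With all arrays the test called 5 of 37 (0 higher, 5 lower), where 7.19% of all genes were called lower and 17.7% in either direction. They were Col4a2, a chain of the ubiquitous type IV net, Col5a1, which helps to start and size collagen fibrils, the type VI chains Col6a1 and Col6a2, and Col8a1, a short-chain collagen of vessel walls. In the wild type, gastric reflux against no reflux raised Col4a2, the 1 collagen called (3.06% of all genes were called higher and 4.12% in either direction), and the 37 genes had a median difference of 0.40, beside -0.03 over all genes. In the Nrf2-null, gastric reflux called 0 of 37 by limma's moderated test, where 0.584% of all genes were called. At an unadjusted p under 0.05 there were 5 of the 37, beside 3475 of all 20554 genes tested. The median difference of the 37 was -0.07, beside 0.06 over all genes.

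**Figure D4:**
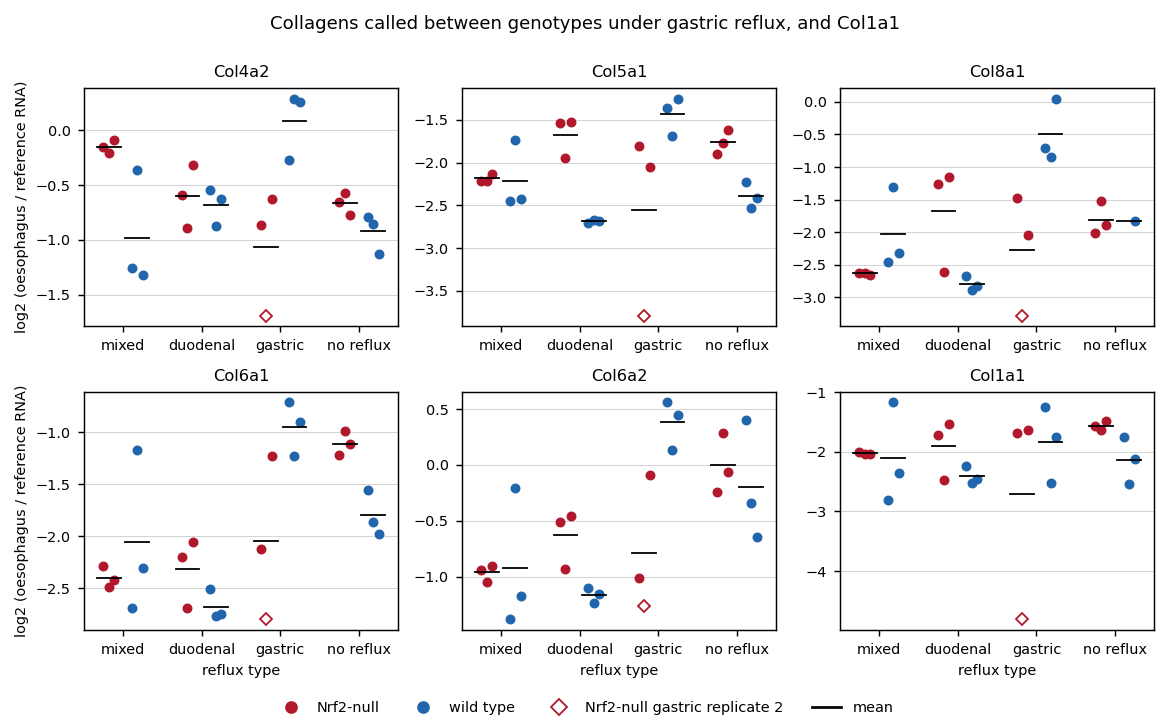
Log2 ratio on each array (points) and group means (bars) for the 5 collagens called between genotypes under gastric reflux and for Col1a1, which was not called; the open diamond is Nrf2-null gastric replicate 2. Nrf2-null gastric replicate 2 is the lowest of the 3 Nrf2-null gastric arrays in all 6 panels, and reaches -4.81 for Col1a1.

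Col4a2 had -0.86, -1.69 and -0.63 in Nrf2-null gastric reflux, against -0.27, 0.29 and 0.26 in the wild type. The groups did not overlap, and the difference was -1.15 ± 0.27 (adjusted p = 0.0112), with -1.46 by a second probe. Against no reflux (-0.79, -0.85 and -1.13), wild-type gastric reflux was 1.02 ± 0.27 higher (2.02-fold, adjusted p = 0.0446). Col8a1 had -1.47, -3.28 and -2.05 in Nrf2-null gastric reflux, against -0.70, -0.84 and 0.05 in the wild type, -1.77 ± 0.45 apart (adjusted p = 0.0178), with -1.10 by its second probe. Col6a2 had -1.01, -1.26 and -0.09 in the Nrf2-null, against 0.56, 0.13 and 0.45 in the wild type, -1.17 ± 0.32 apart (adjusted p = 0.0226), with -0.60 by its second probe. In both genes the groups did not overlap.

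Col5a1 had -1.80, -3.79 and -2.05 in Nrf2-null gastric reflux, against -1.36, -1.69 and -1.25 in the wild type, -1.11 ± 0.35 apart (adjusted p = 0.0386). Its second, dimmer probe had -0.09. Col6a1, with a single probe, had -2.12, -2.80 and -1.23 in the Nrf2-null, against -0.71, -1.23 and -0.90 in the wild type, where the groups touch at -1.23, and the difference was -1.10 ± 0.35 (adjusted p = 0.0413). Other chains of the same types did not pass. Col4a1 had -1.22 ± 0.42 (adjusted p = 0.0539), Col6a3 -1.20 ± 0.48 (adjusted p = 0.0900) and Col5a2 -1.30 ± 0.57 (adjusted p = 0.114), while Col6a4 had the opposite sign, 0.70 ± 0.32 (adjusted p = 0.128), and 0.46 by its second probe. The fibril-forming Col1a2 had -1.56 ± 0.55 (adjusted p = 0.0597), Col1a1 -0.87 ± 0.62 (adjusted p = 0.332) and Col3a1 -0.86 ± 0.66 (adjusted p = 0.370).

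Col1a1 had -1.69, -4.81 and -1.63 in Nrf2-null gastric reflux, against -1.24, -2.52 and -1.75 in the wild type. Col1a2 had -2.89, -4.49 and -2.47 in the Nrf2-null, against -1.34, -2.18 and -1.65 in the wild type. Col3a1 had -1.06, -2.41 and -0.21 in the Nrf2-null, against -0.15, -0.79 and -0.15 in the wild type. Only Col1a2 of these 3 did not overlap between the genotypes. Col4a1 had -0.65, -1.92 and -0.40 in the Nrf2-null, against 0.02, 0.32 and 0.35 in the wild type. Col5a2 had -2.78, -3.47 and -1.64 in the Nrf2-null, against -1.24, -1.62 and -1.11 in the wild type. Col6a3 had -0.70, -1.86 and -0.07 in the Nrf2-null, against 0.49, 0.10 and 0.38 in the wild type. In these 3 the genotypes did not overlap, and replicate 2 was the lowest Nrf2-null array.

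These gastric calls rest on few arrays. Leaving out wild-type gastric replicate 2 or 3 ended the call of Col4a2 (-1.05 and -1.07) and of Col6a2 (-1.29 and -1.13), replicate 3 that of Col8a1 (-1.50), and any of the 3 those of Col5a1 (-1.24 to -1.02) and Col6a1 (-1.24 to -0.98). Without Nrf2-null gastric replicate 2, Col4a2 was still called (-0.84, adjusted p = 0.0427), and the other 4 were not: Col6a2 had -0.93 (adjusted p = 0.0809), Col8a1 -1.26 (0.0625), Col6a1 -0.73 (0.159) and Col5a1 -0.49 (0.113). Instead 3 others were called higher in the Nrf2-null, Col7a1 (1.75 ± 0.54, adjusted p = 0.0472), Col6a4 (1.07 ± 0.30, adjusted p = 0.0314) and Col16a1 (0.80 ± 0.23, adjusted p = 0.0376), which with all arrays had 1.12, 0.70 and 0.36 and were not called. In these 3 genes the dim array, Nrf2-null gastric replicate 1, was the highest of the gastric arrays, at 4.63 for Col7a1, 1.36 for Col6a4 and -0.58 for Col16a1. No scan day held both gastric groups, and with scan day as a block none of the 5 was called (-1.65 to -0.99, adjusted p of 0.785 to 0.797). That fit too takes the offset between the days from the Nrf2-null arrays without reflux. Without the 2 arrays of the first slide, which hold neither gastric group, the differences of Col5a1 and Col6a1 stayed at -1.11 and -1.10 and their adjusted p was 0.0557 and 0.0576. Without the 2 dim arrays 11 collagens were called, 2 higher (Col4a4 and Col23a1) and 9 lower, and the software's ratio called 2 higher and 4 lower. The rise of Col4a2 in the wild type was lost with scan day as a block (1.22, adjusted p = 0.302) and within day 2, 3 gastric arrays against 1 (1.22, adjusted p = 0.164).

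Of the 5 collagens lower in the Nrf2-null under gastric reflux and of Col9a2, lower under duodenal reflux, 3 hold the letters TGACNNNGC in the 250 bases before their start. They are shown with 10 bases on each side, the match in capitals, because this is the core of the element that Nrf2 binds.
Col4a2, chr8:11312721-11312749, plus strand: ccgggtgcggTGACTCTGCgcagagacct
Col6a2, chr10:76623458-76623486, minus strand: ccccacccgcTGACCCCGCccatccgcgg
Col9a2, chr4:121039537-121039565, plus strand: gatccgccccTGACCGGGCggagctggac
In all, 5 of the 36 collagen entries hold these letters, 13.9%, against 10.2% of all entries. The other 2 are those of Col7a1 and Col24a1, not called in any comparison with all arrays and the Nrf2-null mixed arrays averaged. Without Nrf2-null gastric replicate 2, Col7a1 was called higher in the Nrf2-null under gastric reflux (1.75), the other direction from the 3 shown. The matches start 74, 72 and 19 bases before the gene's start in Col4a2, Col6a2 and Col9a2. A match is no evidence of binding.

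Under duodenal reflux the genotypes differed in 1 collagen, where 1.89% of all genes were called. Col9a2, a chain of the FACIT type IX that is best known from cartilage, had 1.89, 0.30 and 0.28 in the Nrf2-null, against 1.96, 2.10 and 2.15 in the wild type, a difference of -1.25 ± 0.31 (adjusted p = 0.0472). The Nrf2-null values lay at 2 levels, and so did those of the 3 near-identical Nrf2-null mixed arrays, at 1.37, 0.25 and 0.23. Within day 3, which holds both groups, the difference was -1.25 with adjusted p = 0.185, and without the 2 dim arrays it was -0.99 with adjusted p = 0.104. Without those 2 arrays 3 collagens were called, 3 higher and 0 lower. Leaving out any duodenal array but Nrf2-null replicate 1 ended the call of Col9a2 (-1.30 to -0.98). Of 8 cartilage markers, Matn1, Cnmd and Hapln1 were not above background on any array and Matn3 was on 1, while Acan, Snorc, Comp and Chad were on 23, 22, 21 and 20 arrays, and none of the 4 tested was called between genotypes under duodenal reflux.

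Without reflux no collagen was called between the genotypes: 0 of 37 were called by limma's moderated test, where 0.170% of all genes were called. At an unadjusted p under 0.05 there was 1 of the 37, beside 1614 of all 20551 genes tested. The nearest was Col23a1, with 2.16, 1.73 and 2.16 in the Nrf2-null, against 0.93, 1.02 and 1.32 in the wild type (0.93 ± 0.20, adjusted p = 0.112). Averaged over the 4 conditions, Col23a1 was the 1 collagen called, higher in the Nrf2-null by 0.79 ± 0.11 (1.72-fold, adjusted p = 0.000509), where 5.80% of all genes were called higher and 8.18% in either direction. By condition, the difference was 0.93 without reflux, 0.52 with gastric reflux, 0.05 with duodenal reflux and 1.64 with mixed reflux. By an F test the genotype difference depended on the reflux type in 3 collagens, Col4a2, Col9a2 and Col23a1 (adjusted p of 0.0311 to 0.0443), where 5.09% of all genes passed. A second Col23a1 probe gave 0.68 as the mean of the conditions. With scan day as a block the mean was 0.65 and no longer called (adjusted p = 0.0793). Among fibrillar collagens without reflux, Col3a1 had 0.95 ± 0.93, with 1 wild-type array measured, Col5a2 0.87 ± 0.57 and Col1a1 0.57 ± 0.62, with adjusted p of 0.766 to 0.874.

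Other collagens known in this tissue gave no call with all arrays. Col7a1, the anchoring fibril of the squamous epithelium, ran from 1.40 to 4.63 over 22 arrays, with differences of -1.17 to 1.12 over the 10 comparisons and no call. Its highest values, 4.63 and 4.14, were on the 2 dim arrays, Nrf2-null gastric replicate 1 and Nrf2-null duodenal replicate 2. Col14a1, a FACIT of tension-bearing fibres, had 2.42, 2.96 and 4.05 in Nrf2-null gastric reflux, against 4.85, 4.41 and 5.17 in the wild type, -1.67 ± 0.62 apart and not called (adjusted p = 0.0711). Col12a1, another FACIT, had differences of -0.17 to 1.30, and Col15a1 ran from 1.51 to 3.92 over the 24 arrays, with no call for either. Col2a1, the fibrillar collagen of cartilage, was above background on all 24 arrays, with differences of -0.65 to 0.87 and no call.

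Genes that build collagen also differed between the genotypes under gastric reflux. Of 27 genes tested out of 29 listed for collagen folding, processing and cross-linking, the Nrf2-null had 11 lower and 1 higher under gastric reflux, where 7.19% of all genes were lower and 17.7% were called in either direction. Among those lower were the lysyl oxidases Loxl1 (-1.88 ± 0.38, adjusted p = 0.00575) and Loxl2 (-1.45 ± 0.33, adjusted p = 0.00998), which start collagen cross-links, and Pcolce2 (-1.75 ± 0.46, adjusted p = 0.0188), an enhancer of propeptide removal. The procollagen propeptidase Adamts2 had -1.43 ± 0.44 (adjusted p = 0.0358). The 1 higher, the isomerase Ppib, was named after its value was seen (0.58 ± 0.16, adjusted p = 0.0234). The median of the list was -0.39, beside 0.11 over all genes. The mean of the 27 was -1.03, -1.58 and -1.09 on the Nrf2-null gastric arrays, the lowest being replicate 2. In wild-type gastric reflux it was -0.74, -0.76 and -0.49. No scan day held both gastric groups, and no alternative setting was run for these genes or for the receptors below. Wild-type gastric reflux raised 3 of the 27 against no reflux, where 3.06% of all genes were higher, Loxl1 (1.59), the galactosyltransferase Colgalt2 (1.63) and the lysyl hydroxylase Plod1 (0.72). Duodenal reflux raised 3 and lowered 1 in the Nrf2-null, beside 19.8% of all genes, with Lox at 0.94 ± 0.25 (adjusted p = 0.0162) and the propeptidase Adamts3 at 1.23 ± 0.29 (adjusted p = 0.00784). Among wild-type mice 1 was higher and 3 were lower, beside 10.3% of all genes, with Loxl2 at -1.09 and Pcolce2 at -1.64. Between genotypes none of the 27 was called without reflux, under duodenal reflux or under mixed reflux. At an unadjusted p under 0.05 by limma's moderated test there was 1 of the 27 without reflux, beside 1614 of all 20551 genes tested. Under duodenal reflux there were 10 of the 27, beside 3688 of all 20553 genes tested.

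Of 9 collagen receptors tested out of 10 listed, 2 were lower in the Nrf2-null under gastric reflux, a count too small to set against the 7.19% of all genes. These were Itga11 (-2.11 ± 0.46, adjusted p = 0.00794), the integrin chain by which fibroblasts hold fibrillar collagen, and its partner Itgb1 (-1.12 ± 0.27, adjusted p = 0.0123). Itga11 was 2.00 ± 0.46 higher in wild-type gastric reflux than without reflux (adjusted p = 0.0288) and 1.56 lower in wild-type duodenal reflux (adjusted p = 0.0408).

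**Figure D5:**
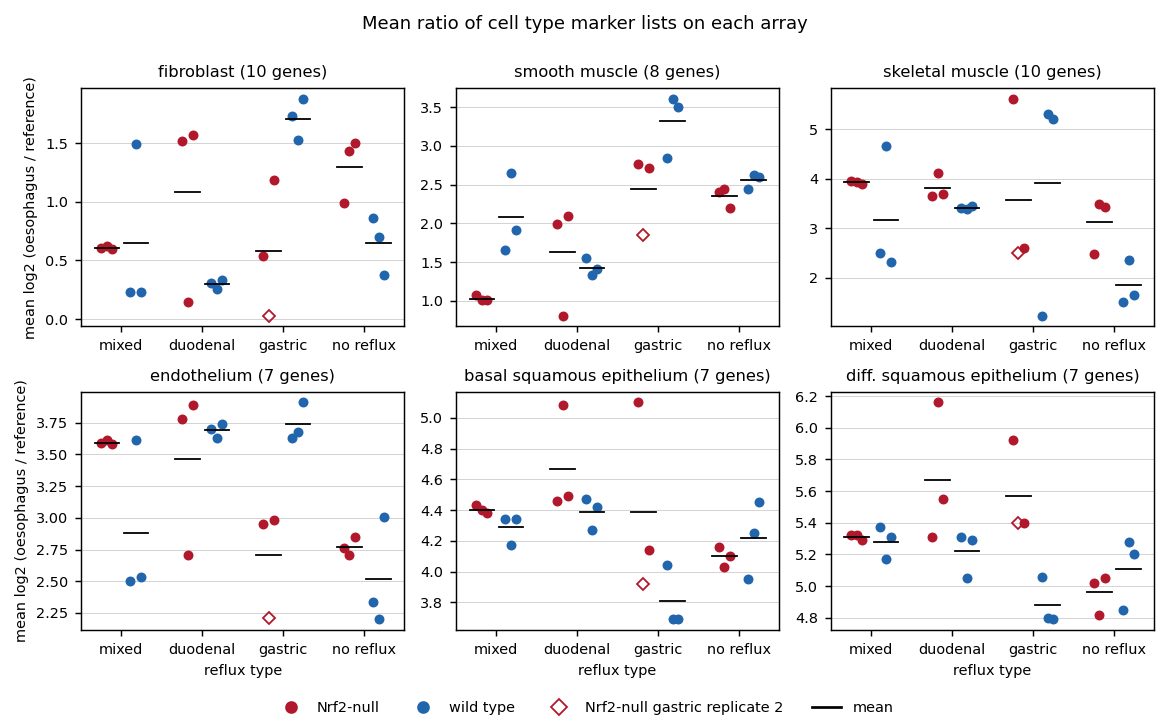
Mean log2 ratio of the genes on 6 cell type marker lists on each array (points) with group means (bars), outlier-flagged spots kept. The open diamond is Nrf2-null gastric replicate 2. Under gastric reflux the fibroblast and endothelium points of the Nrf2-null lie below those of the wild type, and under duodenal reflux the smooth muscle points of the wild type lie below those without reflux.

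Markers of other cell types moved with these comparisons, and their part in the collagen differences was not tested. No alternative setting was run for the marker lists. The counts stand beside 17.7% of all genes called for the genotypes under gastric reflux, 4.12% for wild-type gastric reflux, 19.8% and 10.3% for duodenal reflux in the Nrf2-null and the wild type, and 4.76% for Nrf2-null mixed reflux. Under gastric reflux 3 of 10 fibroblast markers (Dcn, Fbln2 and Pi16) were lower in the Nrf2-null, with list means of 0.54, 0.03 and 1.19 in the Nrf2-null, against 1.73, 1.53 and 1.88 in the wild type. So were 4 of 7 endothelial markers (Pecam1, Cdh5, Kdr and Tek), with 2.95, 2.21 and 2.98, against 3.63, 3.68 and 3.91, and 2 of 8 smooth muscle markers (Smtn and Synm). Of the squamous markers, 2 of 7 basal ones (Krt15 and Dst) and 2 of 7 differentiated ones (Krt13 and Krt6a) were higher. The genotypes did not overlap in the fibroblast, endothelial or smooth muscle mean, the last at 1.85 to 2.77 in the Nrf2-null, against 2.85 to 3.61 in the wild type.

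In wild-type gastric reflux against no reflux, where Col4a2 rose, the endothelial Pecam1 and Cdh5 (1.62 for Cdh5) and the fibroblast Fbln2 (1.32) rose too. So did the smooth muscle Smtn (1.27) and the skeletal muscle Atp2a1 (3.12). The skeletal muscle mean differed widely within the gastric groups. It was 1.23, 5.31 and 5.21 in wild-type gastric reflux, against 1.51, 2.36 and 1.65 without reflux. In Nrf2-null gastric reflux it was 5.62, 2.50 and 2.59.

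Between genotypes under duodenal reflux, the fibroblast marker Pi16 (2.23 ± 0.38, adjusted p = 0.00751) and the macrophage marker Cd163 (3.52 ± 0.31, adjusted p = 1.1e-05) were higher in the Nrf2-null. Against no reflux, endothelial markers were higher under duodenal reflux in both genotypes, 3 of 7 in the Nrf2-null (Cdh5, Emcn and Plvap) and 3 of 7 in the wild type (Pecam1, Kdr and Emcn). The endothelial mean was 3.70, 3.63 and 3.74 in wild-type duodenal reflux, against 2.34, 2.20 and 3.01 without reflux. Smooth muscle markers were lower in the wild type, 3 of 8 (Cnn1, Tagln and Synm), with means of 1.55, 1.33 and 1.41 under duodenal reflux, against 2.45, 2.63 and 2.60 without reflux. In the Nrf2-null none of the 8 was called under duodenal reflux, and the means were 1.99, 0.81 and 2.10, against 2.40, 2.44 and 2.20. Of the 10 fibroblast markers none was called against no reflux under duodenal reflux in either genotype. In the Nrf2-null, 6 of 7 differentiated squamous markers were called under duodenal reflux, with Krt4, Krt13, Krt6a, Sprr3 and Tgm3 higher (0.83 to 1.48) and Ivl lower (-2.03). Krt14 (1.20), Cd14 (1.44), Chad (0.55) and Fabp4 (2.49) were also higher there. Wild-type mice had Cd14, Krt6a (0.95) and Fabp4 (2.04) higher under duodenal reflux and Cd163 lower (-2.97). In Nrf2-null mixed reflux against no reflux, the smooth muscle markers Cnn1 and Tagln were lower by the same size (-2.26 each), with list means of 1.01 to 1.07, against 2.20 to 2.44 without reflux, and Cd14 was higher (1.74). The markers of the fibroblast, smooth muscle and macrophage lists were all well above background on all 24 arrays, also in the group labelled as epithelium only in every field.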

How the data were processed

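RNA of mouse oesophagus (Cy5) and a reference RNA (Cy3) were measured on 24 Agilent arrays in 8 groups. The authors deposited scanner files whose intensity columns are mean spot and median local background brightness, and whose log10 ratio was computed by Agilent's Feature Extraction software, per the file headers. The authors' deposited value table holds log2 ratios, read as log2 from their slope of 2.58 to 3.14 on the software's log10 ratio, with a normalisation that no source used here gives. The software version is 10.5.1.1 on 2 arrays and 10.7.3.1 on 22 per the file headers, and 9.1 per the submitters' processing notes.

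Here intensities were background-corrected (normexp, offset 50) and loess-normalised within each array with limma 3.58.1 in R 4.3.3. No dyes were swapped, so a dye effect stays in every ratio. Outlier-flagged spots were left out, repeat spots averaged, and a gene was represented by its brightest probe among those well above background on all 3 arrays of a group. The 3 Nrf2-null mixed arrays were averaged, which left 22 samples and 14 residual degrees of freedom. All groups were fitted together, with limma's moderated test and Benjamini-Hochberg adjustment over all genes. The fit was checked on simulated data. The number of arrays limits the precision.

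The members, the marker and pathway lists and the tests were chosen with earlier results of these data known. Members to be named by their values were 16 listed collagens and the 5 with the largest called differences; Col2a1, Col7a1, Col12a1 and Col15a1 of these are given by ranges. Col4a5, Col9a2, Col22a1 and Col23a1 were added because they were called, and Col4a4, Col6a4 and Col16a1 because they were called without certain arrays. Alternatives covered background, ratio source, centring, filter, flags, probe choice, scan day, slide, replicate number and single arrays.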

Additional observations from a re-analysis of the deposited data

Results flagged for a closer look

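In 3 collagens the genotype difference depended on the reflux type, by an F test across the 4 conditions that limma fitted over all genes, where 5.09% of all genes passed. Col9a2 had an adjusted p of 0.0311, with Nrf2-null minus wild-type differences of 0.44 without reflux, 0.60 with gastric reflux, -1.25 with duodenal reflux and -1.17 with mixed reflux. Its Nrf2-null values were split within the duodenal group and across the near-identical mixed arrays, as given above, and the gene has 1 probe. Col23a1 had an adjusted p of 0.0423, with 0.93 without reflux, 0.52 with gastric reflux, 0.05 with duodenal reflux and 1.64 with mixed reflux. Col4a2 had an adjusted p of 0.0443, with 0.26 without reflux, -1.15 with gastric reflux, 0.08 with duodenal reflux and 0.83 with mixed reflux. For none of the 3 did a single reflux type differ by itself from no reflux in its genotype difference, the smallest adjusted p being 0.0623 for Col4a2 under gastric reflux. With scan day as a block none of the 3 passed (adjusted p of 0.450 for Col9a2, 0.167 for Col23a1 and 0.392 for Col4a2). With 1 array left out at a time, the call was lost in 9 of 24 fits for Col9a2, 16 of 24 for Col23a1 and 16 of 24 for Col4a2. The adjusted p of the F test then reached 0.0675 for Col9a2, 0.0904 for Col23a1 and 0.116 for Col4a2.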

How the results depend on the processing

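Over 605 values of the 30 called differences under the alternatives, 474 kept their call, 131 lost it and 0 turned sign. The total includes leaving out each of the 3 averaged, near-identical Nrf2-null mixed arrays, which could hardly end a call and ended none. With scan day as a block 8 of 33 calls were kept, those by the F test included. The counts of collagens called were 0 (no reflux), 5 (gastric), 1 (duodenal), 3 (mixed) and 1 (mean) for Nrf2-null against wild type, 0, 7 and 5 for gastric, duodenal and mixed reflux in the Nrf2-null, 1, 7 and 0 in the wild type, and 3 by the F test. Leaving out 1 array at a time, they ranged from 0 to 0, 0 to 10, 0 to 1, 2 to 4 and 1 to 3 between genotypes, from 0 to 1, 5 to 9 and 4 to 6 in the Nrf2-null, from 0 to 2, 4 to 7 and 0 to 0 in the wild type, and from 0 to 10 by the F test. With scan day as a block they were 0 for gastric genotype, duodenal genotype, the mean, wild-type gastric, wild-type duodenal and the F test, 2 for Nrf2-null duodenal and 3 for Nrf2-null mixed reflux. Within day 3 they were 0 for duodenal genotype, Nrf2-null duodenal and Nrf2-null mixed and 1 for mixed genotype, and within day 2 they were 0 for wild-type gastric reflux. With the slide as a random block they were 3 for gastric genotype and 0 for duodenal genotype, wild-type gastric and the F test. With local backgrounds as read they were 6 without reflux, 0 for duodenal genotype, 6, 11 and 3 for wild-type gastric, duodenal and mixed, and 10 by the F test. Median centring moved the median of all genes by over 0.1 in 7 of 11 comparisons and gave 0 for duodenal genotype, 1 for mixed genotype, 6 for wild-type gastric, 4 for Nrf2-null duodenal, 2 for Nrf2-null mixed and 0 by the F test. The software's ratio gave 0 for duodenal genotype and wild-type gastric and 1 by the F test, and the authors' values gave 0 for wild-type gastric and 1 by the F test. With no filter on dim probes both duodenal genotype and wild-type gastric had 0, flagged spots kept gave 2 for wild-type gastric and 5 by the F test, and the mean of a gene's probes gave 2 for wild-type gastric. The Nrf2-null mixed arrays as 3 samples gave 1, 8, 10 and 3 for no reflux, gastric, mixed and the mean between genotypes, 2 for wild-type gastric, 11 for Nrf2-null mixed and 13 by the F test. Of 2 settings chosen after seeing the data, leaving out the 2 dim arrays gave 1, 11, 3, 5 and 2 between genotypes, 5 for wild-type gastric and 12 by the F test. Leaving out the first slide gave 3 for gastric genotype, 0 for duodenal genotype, 0 for wild-type gastric, 3 for wild-type duodenal and 0 by the F test. These counts stand without the share of all genes called under the same setting, and the causes were not tested.

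Replicate numbers did not pair the samples, since same-numbered arrays of other groups correlated at -0.0203 in their deviations over 63 pairs and differently numbered ones at 0.00825 over 126. With the replicate block the counts were 4 for gastric, 0 for duodenal and 3 for mixed genotype, 0 for wild-type gastric, 7 for duodenal reflux in either genotype, 5 for Nrf2-null mixed and 1 by the F test. Signal over background limits Col9a1, Col9a3, Col19a1 and Col24a1, and the number of arrays limits the precision of every value.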
